A study of Homo sapiens with 6 samples.

Results

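Annexins and the S100 proteins that bind them were followed at the mRNA level in H69AR cells, a multidrug-resistant small cell lung cancer (SCLC) line selected from NCI-H69 cells with adriamycin. The 10 genes were taken by symbol from a table of 27852 genes, namely 7 annexins (ANXA1, ANXA2, ANXA4, ANXA5, ANXA6, ANXA7 and ANXA11) and 3 S100 genes (S100A6, S100A10 and S100A11). All 10 were among the 13221 genes with enough counts to be tested. Total RNA was sequenced on day 3 after transfection, in 3 libraries from cells given an siRNA against TREX1 (siTREX1) and 3 from cells given a control siRNA (siCtrl). TREX1 is an exonuclease that degrades DNA in the cytoplasm, and the comparison asks how the transcriptome of chemoresistant cells differs once it is depleted. Both groups are the same cell line without further treatment, a single siRNA against TREX1 was used for these libraries, and parental H69 cells were not analysed here. Nothing in the labels tells whether the replicates were separate cultures. The p-values thus reflect the variation among the 6 libraries alone, part or all of which could be technical.

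Annexins are cytosolic proteins that attach to negatively charged phospholipids when calcium rises. They are known for holding membranes together during repair, endocytosis, exocytosis and the shedding of vesicles. S100 proteins are small EF-hand calcium binders that act mostly as dimers, and several of them clamp onto the amino-terminal tail of an annexin. The best known pairs are S100A10 with ANXA2, S100A11 with ANXA1, and S100A6 with ANXA11. ANXA2 with S100A10 also gathers plasminogen and its activator at the cell surface, and ANXA2 has been described in connection with the drug-resistant state of H69AR cells.

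The amino-terminal tails carry the binding specificity, so the first 45 coding bases of the 4 annexins with the best known tails are shown, from the transcripts the table lists and as GENCODE 29 gives them on GRCh38. In ANXA1 and ANXA2 the capitals mark the start codon, and the codons after it encode the stretches gripped by S100A11 and S100A10. In ANXA7 and ANXA11 the capitals mark runs of at least 10 bases that the other of the pair also holds in this window. Those shared runs lie in the glycine-, tyrosine- and proline-rich tails that bind PDCD6 in both proteins, sorcin in ANXA7 and S100A6 in ANXA11.
ANXA1: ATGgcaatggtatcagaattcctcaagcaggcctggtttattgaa
ANXA2: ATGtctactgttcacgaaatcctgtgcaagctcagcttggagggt
ANXA7: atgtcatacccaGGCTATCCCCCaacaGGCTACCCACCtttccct
ANXA11: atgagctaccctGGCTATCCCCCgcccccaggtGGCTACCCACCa

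Promoters are shown for ANXA1, which was higher in the libraries labelled siTREX1, for ANXA11, which was lower, and for ANXA2, the most abundant of the 10 and one that did not change by the test. Each is the 250 bases before the RefSeq start nearest to the listed transcript, on GRCh38.p14, read 5′ to 3′ on the strand of the gene. Capitals mark matches on either strand to the TATA box, written TATAAA. They also mark the letters CCAAT, to which the factor NF-Y binds. Matches to the SP1 core, written GGGCGG, are capitals too, as is the core bound by AP-1 dimers, written TGANTCA. The 3 SP1 core matches of ANXA2 overlap each other.
ANXA1 promoter, chr9:73151615.0-73151864.0, plus strand: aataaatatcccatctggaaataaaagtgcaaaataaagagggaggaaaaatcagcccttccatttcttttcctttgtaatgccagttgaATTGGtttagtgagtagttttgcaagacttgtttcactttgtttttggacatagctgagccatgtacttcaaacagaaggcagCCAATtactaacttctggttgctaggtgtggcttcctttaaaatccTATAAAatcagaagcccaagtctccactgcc
ANXA2 promoter, chr15:60397987.0-60398236.0, minus strand: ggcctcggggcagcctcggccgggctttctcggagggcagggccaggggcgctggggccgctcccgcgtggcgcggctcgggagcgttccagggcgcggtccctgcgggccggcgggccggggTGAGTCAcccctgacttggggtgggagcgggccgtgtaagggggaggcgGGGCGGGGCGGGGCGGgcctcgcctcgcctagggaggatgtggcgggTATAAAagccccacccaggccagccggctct
ANXA11 promoter, chr10:80205538.0-80205787.0, minus strand: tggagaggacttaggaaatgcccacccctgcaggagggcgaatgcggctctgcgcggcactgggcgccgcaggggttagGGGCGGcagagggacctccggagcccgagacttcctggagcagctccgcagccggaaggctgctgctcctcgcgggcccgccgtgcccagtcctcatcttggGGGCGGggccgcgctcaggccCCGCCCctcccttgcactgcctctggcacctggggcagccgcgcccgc

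The ANXA1 promoter is rich in A and T, at 38.4% GC, and 10.1% of 35116 RefSeq promoters have less, against 78.0% GC for ANXA2 and 73.6% for ANXA11. TATAAA was found in the promoters of ANXA1 and ANXA2, in both with its first base 31 before the start, and in 10.7% of all promoters. GGGCGG was found for 9 of the 10 genes, all but ANXA1, and in 42.6% of all promoters. CCAAT was found for ANXA1, ANXA6 and ANXA7, and in 32.0% of all promoters. TGANTCA was found for ANXA2 alone among the 10, with its first base 127 before the start, and in 6.57% of all promoters. For S100A10 the nearest RefSeq start lies 1281 bases from that of the listed transcript. The distance is 231 bases for S100A6, 160 for ANXA4, 133 for ANXA5, 108 for ANXA1 and 103 for ANXA6, and no more than 57 for the others. The ANXA1 window ends past the GENCODE 29 start of the gene (73151757), so its TATAAA lies inside the annotated gene. These matches describe the letters in this window.

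Library totals ran from 16329106 to 22482687 estimated counts, and TMM factors brought them to one scale, on which levels are given as CPM, the usual count scaled to library size. TREX1 had 594, 298 and 301 estimated counts in the libraries labelled siTREX1 (replicates 1, 2 and 3), against 506, 513 and 509 with siCtrl. Its log2 fold change was -0.33 (SE 0.24, adjusted p = 0.349), and -0.62 (adjusted p = 0.0499) without siTREX1 replicate 1, the library in which it was not lower. Directions therefore follow the library labels. For the called genes among the 10 the result without that replicate is given too, and related genes that lost their call without it are named. Of the 9 neuroendocrine markers, NEUROD1, CHGA, NCAM1 and GRP had no more than 3 counts in any library. SYP had 35 to 53 counts with siTREX1 and 47 to 62 with siCtrl, CHGB 100 to 104 with siTREX1 and 99 to 125 with siCtrl, and INSM1 205 to 279 with siTREX1 and 273 to 320 with siCtrl, and these did not pass the test. DLL3 averaged 19.4 ± 0.784 CPM with siTREX1 and 26.3 ± 1.51 CPM with siCtrl and was lower (log2 fold change -0.44, adjusted p = 0.00401). VIM, an intermediate filament gene of adherent mesenchymal cells, is 1 of 8 adherent non-neuroendocrine markers. It averaged 2523 ± 13.2 CPM with siTREX1 and 2501 ± 1.83 CPM with siCtrl (SD, n = 3 each, as for all means here). Of these 8 markers, 2 were higher (CAV1 and MYC), 2 were lower (ABCC1 and REST) and 4 did not pass. MYC had 62, 79 and 68 counts with siTREX1, against 3, 0 and 7 with siCtrl. ABCC1 had a log2 fold change of -0.38. AXL did not pass and had no more than 1.51 CPM in any library. UCHL1, a neuroendocrine marker that many other cancer cells express, averaged 674 ± 40.7 CPM with siTREX1 and 657 ± 13.2 CPM with siCtrl. The 8 immune cell markers summed to 9.24 to 13.8 CPM with siTREX1 and 7.47 to 12.97 CPM with siCtrl, and the 8 fibroblast and endothelial markers to 703 to 748 CPM with siTREX1 and 759 to 768 CPM with siCtrl. Nearly all of the fibroblast and endothelial sum was COL1A1 (520.5 CPM with siTREX1 and 530.5 CPM with siCtrl) and COL3A1 (210.2 CPM with siTREX1 and 229 CPM with siCtrl). The endothelial VWF rounded to 0 counts in every library, and CDH5 had no more than 2 counts in any. PECAM1, also endothelial, had 8, 0 and 8 counts with siTREX1, against 16, 4 and 32 with siCtrl, and was not tested. The mitochondrial genome took 3.98% to 5.01% of counts with siTREX1 and 5.94% to 6.37% with siCtrl.

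Of the 10 genes, 1 was higher (ANXA1) and 3 were lower (ANXA6, ANXA11 and S100A6) in the libraries labelled siTREX1, and 6 did not pass the test (edgeR's quasi-likelihood test, adjusted p under 0.05 over all genes tested). Over all 13221 genes, 33.3% passed, 17.8% as higher and 15.5% as lower. The 4 genes that passed are also those whose groups did not overlap, and over all genes the groups did not overlap for 50.4%. The share of the 10 that passed was thus near the background. Their median log2 fold change was -0.02, and that of all genes tested was also -0.02. In bulk RNA, fewer cells that express a gene and less RNA per cell cannot be told apart. Without siTREX1 replicate 1, 1 of the 10 was higher and 1 (ANXA11) was lower. Calls over the whole table also fell without it, to 1894 higher and 1566 lower, from 2349 and 2049.

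**Figure D1:**
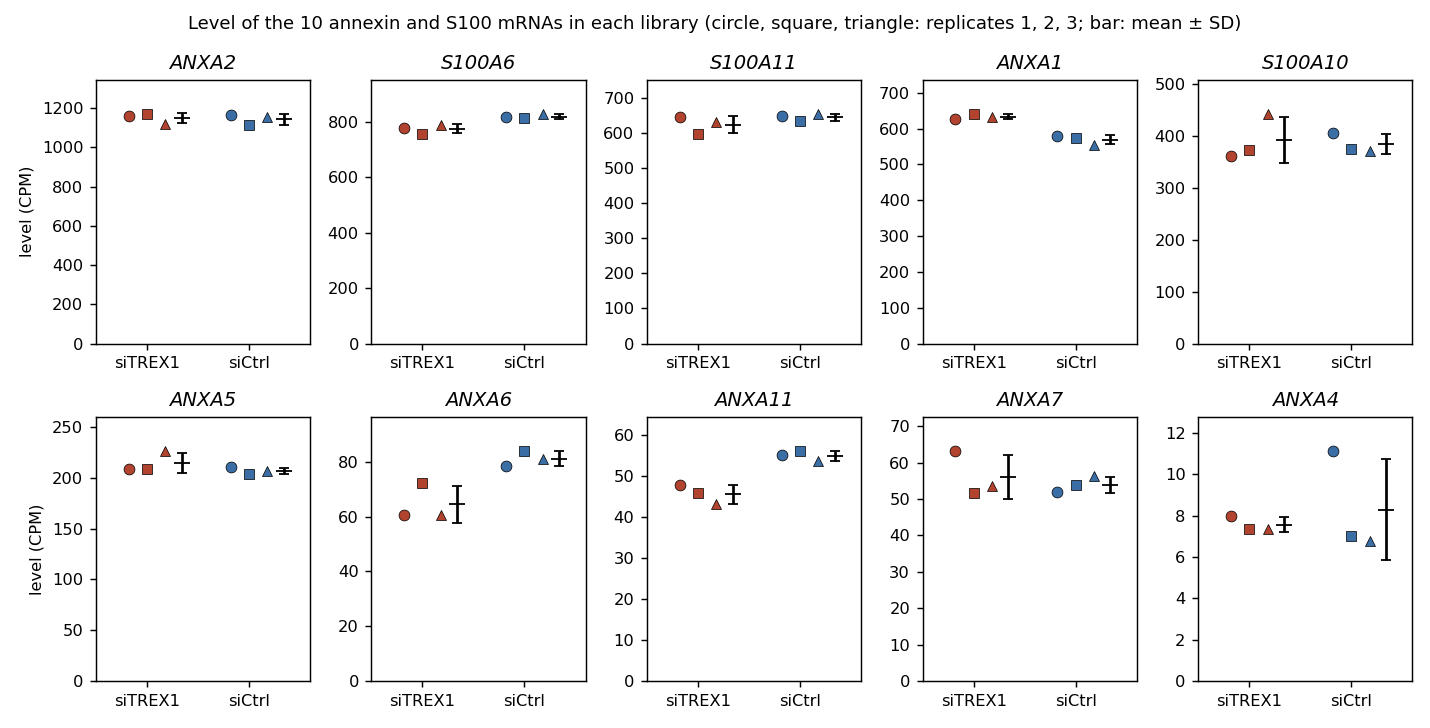
Level of each of the 10 mRNAs in CPM (vertical axis from 0, a separate scale for each gene) in the 3 siTREX1 libraries, left, and the 3 siCtrl libraries, right, with the mean and SD of each group. The siTREX1 points lie above the siCtrl points for ANXA1 (627 to 640 against 555 to 578 CPM) and below them for S100A6, ANXA6 and ANXA11, and the groups overlap for the other 6.

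The deposited counts do not depend on transcript length, so levels of the listed transcripts can be set side by side in CPM. Only 1 transcript per gene symbol is listed, whereas GENCODE 29 holds 38 for ANXA2 and 2 for S100A11. A level may thus leave out other transcripts of its gene, and the orders and shares below are those of the listed transcripts. ANXA2 was the most abundant of the 10 in both groups, and it ranked 134 among all tested genes in each. In the libraries labelled siTREX1 it was followed by S100A6, ANXA1, S100A11, S100A10, ANXA5, ANXA6, ANXA7, ANXA11 and ANXA4. Neighbours in this order overlapped for ANXA1 and S100A11, and for ANXA6 and ANXA7. With siCtrl the order was ANXA2, S100A6, S100A11, ANXA1, S100A10, ANXA5, ANXA6, ANXA11, ANXA7 and ANXA4, and only ANXA11 and ANXA7 overlapped as neighbours. S100A11 thus lay above ANXA1 in all siCtrl libraries, and the mRNAs were level with each other in the libraries labelled siTREX1.

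The steepest step in both orders was the last, to ANXA4. ANXA11 averaged 6.04 times the level of ANXA4 with siTREX1, and ANXA7, its neighbour with siCtrl, averaged 6.50 times. Together the 10 mRNAs held 0.398% ± 0.00672 of each library with siTREX1 and 0.393% ± 0.00542 with siCtrl (SD, n = 3 each), a difference smaller than either spread. ANXA2 alone made up 29.02% of that sum with siTREX1 and 28.85% with siCtrl.

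ANXA1 is an annexin induced by glucocorticoids that limits inflammation and, outside the cell, acts on formyl peptide receptors. Its level was 627, 640 and 634 CPM in the libraries labelled siTREX1, against 578, 574 and 555 CPM with siCtrl. Every siTREX1 library was above every siCtrl library. The means were 634 ± 6.52 CPM with siTREX1 and 569 ± 12.5 CPM with siCtrl (SD, n = 3 each), a rise of 11.4% (95% interval 7.11% to 15.9%). On the log2 scale this was 0.16 (SE 0.02, adjusted p = 0.00415 from edgeR). It passed in 15 of 15 alternative analyses, with log2 fold changes of 0.11 to 0.17, and was 0.17 (adjusted p = 0.0139) without siTREX1 replicate 1. The gene lies on the plus strand of chromosome 9 from 73151757 to 73170393 on GRCh38, and its listed transcript of 1509 nt encodes 346 residues.

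S100A11, the partner of ANXA1, is a dimer that has also been tied to membrane repair and keratinocyte growth. It had 644, 596 and 630 CPM in the libraries labelled siTREX1, against 647, 633 and 653 CPM with siCtrl, and the groups overlapped. Its log2 fold change was -0.05 (SE 0.03, adjusted p = 0.316), and the interval ran from -8.52% to 2.24%. Once a trend with transcript GC content was removed, the value was 0.02. The ratio of S100A11 to ANXA1 was 1.026, 0.931 and 0.994 with siTREX1, against 1.119, 1.103 and 1.177 with siCtrl. The ratios did not overlap, with means of 0.984 ± 0.0486 with siTREX1 and 1.13 ± 0.0389 with siCtrl (SD, n = 3 each). Their difference was -0.20 on the log2 scale (exact two-sided permutation p = 0.1, the smallest that 3 against 3 allows). The ratio was not adjusted for GC content. With that trend removed, the separate log2 fold changes lay closer together, at 0.02 for S100A11 and 0.11 for ANXA1, against -0.05 and 0.16 without this step.

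ANXA2 is the annexin that links actin to cholesterol-rich membrane and binds plasminogen activator at the surface. Its level was 1159, 1170 and 1119 CPM in the libraries labelled siTREX1, against 1165, 1113 and 1153 CPM with siCtrl. The groups overlapped throughout. The log2 fold change was 0.01 (SE 0.03, adjusted p = 0.862), and the interval of -3.98% to 5.22% limits how large a difference these libraries could hold. Of the 31-base words in its listed transcript, 51.3% occur in other genes, mostly in the processed pseudogene ANXA2P2 (50.4%). ANXA2P2 was listed at 0 in all libraries, ANXA2P1 reached at most 10.9 counts and ANXA2P3 at most 1.96, so almost none of the shared signal was assigned to pseudogenes, and the level of ANXA2 is uncertain to that extent. ANXA2 lies on the minus strand of chromosome 15 from 60347134 to 60402883.

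S100A10 forms a heterotetramer with ANXA2 and is unusual among S100 proteins in holding an active shape without calcium. It had 360, 373 and 441 CPM in the libraries labelled siTREX1, against 405, 375 and 371 CPM with siCtrl. Replicate 3 of siTREX1 stood above all the others, and the groups overlapped. The log2 fold change was 0.03 (SE 0.08, adjusted p = 0.821; interval -11.2% to 17.1%), and it was -0.06 without that replicate. The ratio of S100A10 to ANXA2 was 0.311, 0.318 and 0.394 with siTREX1, against 0.348, 0.337 and 0.322 with siCtrl. It differed by 0.02 on the log2 scale (exact two-sided permutation p = 1). In none of the 15 alternatives did ANXA2 or S100A10 pass.

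ANXA11 tethers RNA granules to lysosomes for transport and is needed at the midbody when cells divide. Its level was 47.8, 46.0 and 43.2 CPM in the libraries labelled siTREX1, against 55.2, 56.1 and 53.7 CPM with siCtrl. All siTREX1 libraries were below all siCtrl libraries. The means were 45.7 ± 2.31 CPM with siTREX1 and 54.99 ± 1.182 CPM with siCtrl (SD, n = 3 each), so the level fell by 16.8%. The log2 fold change was -0.27 (SE 0.05, adjusted p = 0.00880 from edgeR), and it was -0.30 (adjusted p = 0.0147) without siTREX1 replicate 1. Removal of the GC trend brought it to -0.14 (adjusted p = 0.0287), and a replicate block added to that fit ended the call (adjusted p = 0.0715). ANXA11 lies on the minus strand of chromosome 10 from 80150889 to 80205572.

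S100A6, also called calcyclin, is a cell cycle-linked S100 protein whose partners include ANXA11 and the ubiquitin ligase adaptor CACYBP. It had 779, 757 and 789 CPM in the libraries labelled siTREX1, against 816, 811 and 827 CPM with siCtrl. The groups did not overlap, and the gap between them was small. The means were 775 ± 16.4 CPM with siTREX1 and 818 ± 7.97 CPM with siCtrl (SD, n = 3 each), and the level fell by 5.26%. The log2 fold change was -0.08 (SE 0.02, adjusted p = 0.0404), and with the GC trend removed it was 0.10 and did not pass (adjusted p = 0.150). S100A6 passed in 5 of 15 alternatives, and the call was lost without any of siTREX1 replicate 1 (adjusted p = 0.0994) or 2 (0.116), or siCtrl replicate 1 (0.0965), 2 (0.0860) or 3 (0.120).

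ANXA6 is an annexin with a duplicated core that shapes late endosomes, cholesterol transport and membrane repair caps. Its level was 60.5, 72.4 and 60.6 CPM in the libraries labelled siTREX1, against 78.3, 83.7 and 81.1 CPM with siCtrl. All siTREX1 libraries were below all siCtrl libraries, and siTREX1 replicate 2 lay nearest to them. The means were 64.5 ± 6.81 CPM with siTREX1 and 81.0 ± 2.73 CPM with siCtrl (SD, n = 3 each), and the level fell by 20.4%, the largest called change of the 10. Its log2 fold change was -0.33 (SE 0.08, adjusted p = 0.0213 from edgeR). The call was lost without siTREX1 replicate 1 (-0.28, adjusted p = 0.0680) or 3 (-0.29, adjusted p = 0.0649), without siCtrl replicate 2 (-0.30, adjusted p = 0.0725) or 3 (-0.33, adjusted p = 0.0652), and with the GC trend removed (-0.23, adjusted p = 0.0583). With the GC trend removed and a replicate block added, ANXA6 passed (-0.23, adjusted p = 0.0344 from edgeR). ANXA6 lies on the minus strand of chromosome 5 from 151100712 to 151157882.

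The other 3 annexins did not pass in any of the 15 alternatives. ANXA5, whose calcium-dependent grip on phosphatidylserine is the basis of a common stain for apoptotic cells, had 209, 209 and 226 CPM in the libraries labelled siTREX1, against 210, 204 and 207 CPM with siCtrl. The groups overlapped, with a log2 fold change of 0.05 (SE 0.04, adjusted p = 0.351; interval -2.79% to 10.5%). ANXA7, which promotes membrane fusion during secretion, had 63.1, 51.7 and 53.5 CPM with siTREX1, against 51.9, 53.8 and 56.2 CPM with siCtrl. Replicate 1 of siTREX1 was the highest library for ANXA7, and the log2 fold change of 0.06 (SE 0.08, adjusted p = 0.638; interval -9.51% to 19.7%) became -0.03 without it.

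ANXA4, an annexin of secretory epithelia that self-assembles on membranes, was the least abundant of the 10. It had 167, 137 and 122 estimated counts in the libraries labelled siTREX1, against 247, 114 and 140 with siCtrl. In CPM these were 7.98, 7.34 and 7.37 with siTREX1, against 11.1, 6.99 and 6.79 with siCtrl. Replicate 1 of siCtrl stood above the rest, and the log2 fold change of -0.13 (SE 0.21, adjusted p = 0.666) became 0.13 without it. The interval of -36.0% to 29.8% is wide, so a moderate difference in ANXA4 was not detectable here. ANXA4 also overlaps AAK1 on the opposite strand. ANXA2, ANXA7, S100A6 and S100A11 likewise overlap a gene on the opposite strand, and although the library kit keeps strand, whether the quantification used it is not given in the sources used here.

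**Figure D2:**
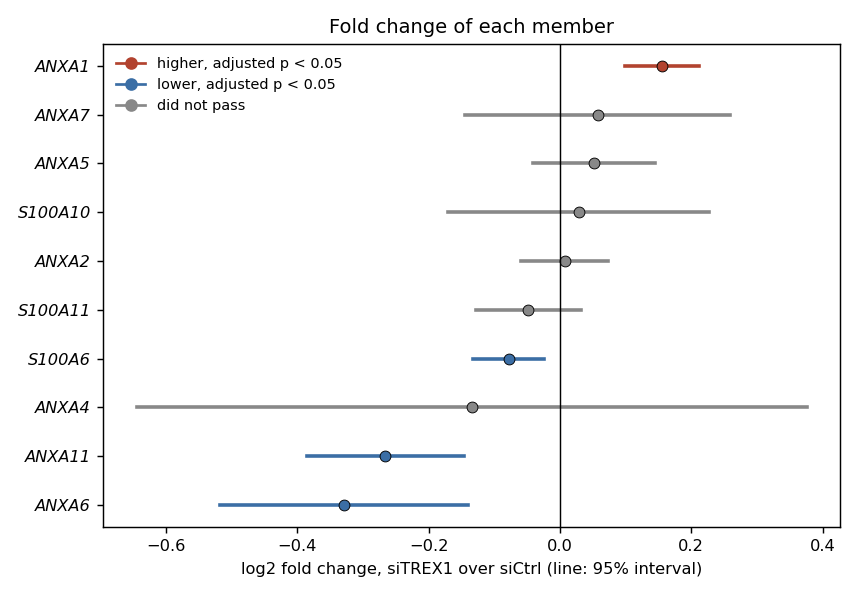
Log2 fold change of each of the 10 genes, siTREX1 over siCtrl (horizontal axis), with its 95% interval as a line, ordered by value. ANXA1 lies above 0 and S100A6, ANXA11 and ANXA6 below it, while the 6 grey intervals include 0 and that of ANXA4 is the widest.

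Fold changes moved with the GC content of the listed transcripts across all genes. The median log2 fold change was 0.07 for the 1583 tested genes under 40% GC, 0.04 from 40% to 45%, 0.03 from 45% to 50%, -0.01 from 50% to 55%, -0.08 from 55% to 60%, -0.15 from 60% to 65% and -0.25 above that. ANXA1, the gene that rose, has the lowest GC content of the 10 (41.1%), and the 3 that fell have the highest: S100A6 (59.8%), ANXA11 (57.3%) and ANXA6 (56.0%). S100A6, at -0.08, was close to the median of its bin, whereas ANXA11 at -0.27 and ANXA6 at -0.33 lay below that median and ANXA1 at 0.16 lay above the 0.04 of its own. With the trend removed, 2837 genes of the whole table were higher and 1645 lower, against 2349 higher and 2049 lower without this step, and 2362 higher and 1215 lower when a replicate block was added. Among the 10, ANXA1 and ANXA11 passed with the trend removed and no block, at 0.11 (adjusted p = 0.0239) and -0.14 (adjusted p = 0.0287). With the block added, ANXA1 (0.11, adjusted p = 0.0324) and ANXA6 (-0.23, adjusted p = 0.0344) passed by edgeR's test, and ANXA11 did not (adjusted p = 0.0715). The part of GC content in these changes was not tested.

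**Figure D3:**
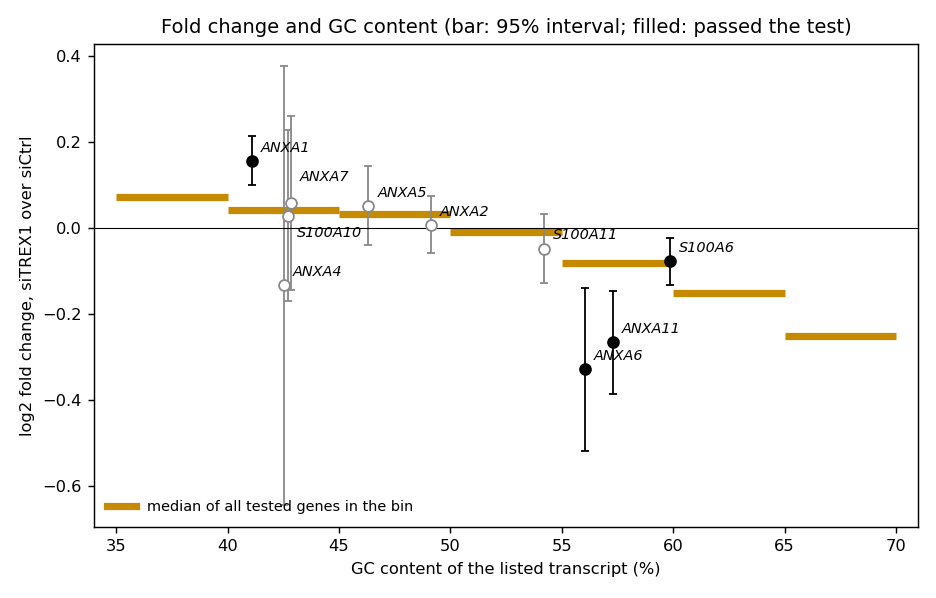
Log2 fold change of each of the 10 genes (vertical axis, bars are 95% intervals) against the GC content of its listed transcript in percent (horizontal axis), with the median of all tested genes in each GC bin as a thick line. The outermost bins are open-ended, and the bin medians step down from 0.07 to -0.25 as GC content increases.

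**Figure D4:**
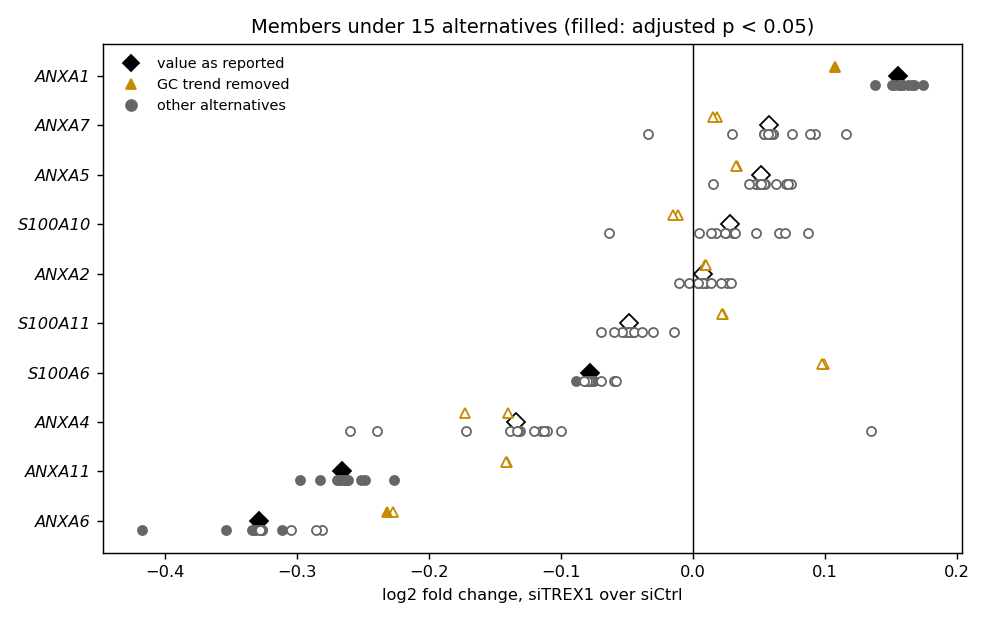
Log2 fold change of each of the 10 genes (horizontal axis) as reported (diamond) and in 15 alternative analyses (circles, or triangles where the GC trend was removed), filled where the adjusted p was under 0.05. ANXA1 is filled throughout, and S100A6 crosses 0 in the GC-adjusted fits.

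Among 18 binding partners of annexins and S100 proteins, 13 were tested, 4 were higher and 3 were lower in the libraries labelled siTREX1. The shares over all genes tested were 17.8% higher and 15.5% lower. This list was chosen with earlier results of these data known. The largest of these changes was in AHNAK, a giant scaffold protein that the ANXA2 and S100A10 complex anchors at the plasma membrane. AHNAK had 8.29, 7.99 and 8.20 CPM in the libraries labelled siTREX1, against 15.67, 15.98 and 15.84 CPM with siCtrl. The groups were far apart relative to their spread, and the log2 fold change was -0.95 (SE 0.07, adjusted p = 0.000402 from edgeR). It passed in 15 of 15 alternatives, at -0.95 with the GC trend removed and -0.96 without siTREX1 replicate 1, while neither ANXA2 nor S100A10 passed.

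PDCD6, which binds the ANXA7 and ANXA11 tails, was higher. This penta-EF-hand protein, which links calcium to membrane coats, averaged 213 ± 2.25 CPM with siTREX1 and 193 ± 2.11 CPM with siCtrl (SD, n = 3 each; log2 fold change 0.14, SE 0.02, adjusted p = 0.00538). PEF1, which forms a dimer with PDCD6, had a log2 fold change of 0.21 (adjusted p = 0.0163), and the call was lost without siTREX1 replicate 1 (0.20, adjusted p = 0.0546) or 2 (0.21, adjusted p = 0.0508). Sorcin (SRI), which binds the ANXA7 tail, averaged 409 ± 33.1 CPM with siTREX1 and 433 ± 3.30 CPM with siCtrl and did not pass (-0.08, adjusted p = 0.322), and its value was -0.0162 without siTREX1 replicate 3. PDCD6IP, an ESCRT-linked partner of PDCD6, did not pass either (0.15, adjusted p = 0.392), on a transcript annotated as retaining an intron, and ran from 0.0771 (without siCtrl replicate 3) to 0.26 (without siTREX1 replicate 1) as single libraries were left out.

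SUGT1 and CACYBP, which encode proteins that S100A6 binds, were higher, and FKBP8, described below, was lower. SUGT1, a co-chaperone that S100A6 binds, averaged 103 ± 5.15 CPM with siTREX1 and 88.1 ± 1.183 CPM with siCtrl (log2 fold change 0.22, adjusted p = 0.0109). CACYBP, the calcyclin-binding protein, had a log2 fold change of 0.13 (adjusted p = 0.0255) on a transcript annotated as retaining an intron, and the call was lost without siCtrl replicate 2 (adjusted p = 0.0733) or 3 (adjusted p = 0.0814), with a replicate block (adjusted p = 0.0776), and with the GC trend removed and a replicate block (adjusted p = 0.105). FKBP8, a mitochondrial immunophilin that S100 proteins bind, averaged 109 ± 5.80 CPM with siTREX1 and 131 ± 5.32 CPM with siCtrl (-0.26, adjusted p = 0.00971), a direction that turned to 0.08 with the GC trend removed. S100PBP, a binding protein of S100P, had a log2 fold change of -0.32 (adjusted p = 0.0146), lost without siCtrl replicate 3 (-0.28, adjusted p = 0.0528).

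Other annexins were low or not detected, and several other S100 genes were expressed. Of 6 other annexins 2 were tested (ANXA9 and ANXA13), and neither passed. Of 17 other S100 genes 9 were tested, and 0 were higher and 2 were lower by edgeR's test. Over all genes tested, 17.8% were higher and 15.5% lower. S100A16, a widely expressed S100 protein, had 59.32, 59.99 and 55.93 CPM in the libraries labelled siTREX1, against 73.65, 71.08 and 69.4 CPM with siCtrl. It did not overlap between groups (-0.29, SE 0.04, adjusted p = 0.00423), and it was -0.16 (adjusted p = 0.0138) with the GC trend removed. S100A1, known from heart muscle, averaged 11.4 ± 0.969 CPM with siTREX1 and 15.99 ± 1.23 CPM with siCtrl (-0.49, SE 0.10, adjusted p = 0.0110), and lost its call with the GC trend removed and a replicate block (-0.35, adjusted p = 0.0707). The inflammatory S100A8, S100A9 and S100A12 were listed at 0 in all libraries.

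Most S100 genes sit together on chromosome 1. In GENCODE 29, 16 of the listed ones, S100A6, S100A10 and S100A11 included, span 1649 kb of it, and 10 of them were tested. S100A10 and S100A11 are 38.1 kb apart at one end, and neither passed. S100A6, S100A16 and S100A1, which lie towards the other end, were lower. Between S100A6 and S100A16, S100A5, S100A4, S100A3 and S100A2 did not pass (-0.57, 0.10, 0.24 and 0.24 on the log2 scale). The value of S100A5 gives no direction (SE 1.65), with 57, 15 and 0 counts with siTREX1 against 0, 34 and 67 with siCtrl. S100A13, beside S100A1, averaged 80.6 ± 8.22 CPM with siTREX1 and 99.7 ± 12.1 CPM with siCtrl and did not pass (-0.31, adjusted p = 0.0808). S100A13 and S100A1 overlap on opposite strands.

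The surface function of ANXA2 and S100A10 is the activation of plasminogen. Of the 7 genes of that system described here, 6 were tested, 0 were higher and 2 were lower, against 17.8% and 15.5% over all genes tested. PLAUR, the urokinase receptor, averaged 3.51 ± 0.0285 CPM with siTREX1 and 7.80 ± 1.20 CPM with siCtrl (-1.15, SE 0.16, adjusted p = 0.00285). PLAT, the tissue plasminogen activator, averaged 5.29 ± 0.537 CPM with siTREX1 and 7.70 ± 0.492 CPM with siCtrl (-0.54, adjusted p = 0.0212). Its call was lost without siTREX1 replicate 1 (adjusted p = 0.0574) or 2 (adjusted p = 0.0527) and without siCtrl replicate 2 (adjusted p = 0.0703) or 3 (adjusted p = 0.0701). The call of PLAT was also lost with the GC trend removed and a replicate block (-0.47, adjusted p = 0.0642 from edgeR).

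Of 24 genes of membrane repair and calcium-bound membrane traffic, 20 were tested. In this list 3 were higher and 1 was lower, against 17.8% and 15.5% over all genes tested. CAV1, the coat protein of caveolae, averaged 83.9 ± 3.87 CPM with siTREX1 and 60.3 ± 1.03 CPM with siCtrl (0.48, SE 0.04, adjusted p = 0.000796). VPS4B and VPS4A, the ATPases that recycle ESCRT filaments, had log2 fold changes of 0.41 (adjusted p = 0.00285) and 0.22 (adjusted p = 0.00341). EHD2, which stabilizes the necks of caveolae, was lower at -0.18 (adjusted p = 0.0369) and turned to 0.04 with the GC trend removed. Its call was also lost without siTREX1 replicate 1 (adjusted p = 0.112) or 2 (adjusted p = 0.0964) and without siCtrl replicate 1 (adjusted p = 0.0644), 2 (adjusted p = 0.0911) or 3 (adjusted p = 0.110), with a replicate block (adjusted p = 0.0622), with library sizes alone (adjusted p = 0.0647) and without a filter (adjusted p = 0.0510), so that it held in 5 of 15 alternatives.

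Annexins and most S100 proteins read the calcium level, and of 24 listed genes of calcium sensing and transport 22 were tested, 5 were higher and 4 were lower. ATP2A2, the pump that fills the endoplasmic reticulum, averaged 319 ± 0.557 CPM with siTREX1 and 269 ± 4.33 CPM with siCtrl (0.25, SE 0.02, adjusted p = 0.000737). ATP2B1, the pump of the plasma membrane, had a log2 fold change of 0.43 (adjusted p = 0.00100), and STIM2, a calcium sensor of the endoplasmic reticulum, one of 1.10 (adjusted p = 0.00554) on a transcript annotated as retaining an intron. ORAI3, a subunit of store-operated channels, fell to 11, 12 and 6 counts in the libraries labelled siTREX1, against 64, 44 and 56 with siCtrl (-2.42, SE 0.32, adjusted p = 0.00260). HPCAL1, a neuronal calcium sensor, and ITPR3, an inositol trisphosphate receptor, had log2 fold changes of -0.55 (adjusted p = 0.00272) and -0.27 (adjusted p = 0.00563), and HPCAL1 was -0.33 (adjusted p = 0.00544) with the GC trend removed. ITPR3 was -0.12 (adjusted p = 0.0377) with the GC trend removed and lost its call when a replicate block was added (adjusted p = 0.0777). These lists were chosen for their relation to annexins, and the counts are read against the 17.8% of genes that were higher and 15.5% that were lower over the whole table.

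**Figure D5:**
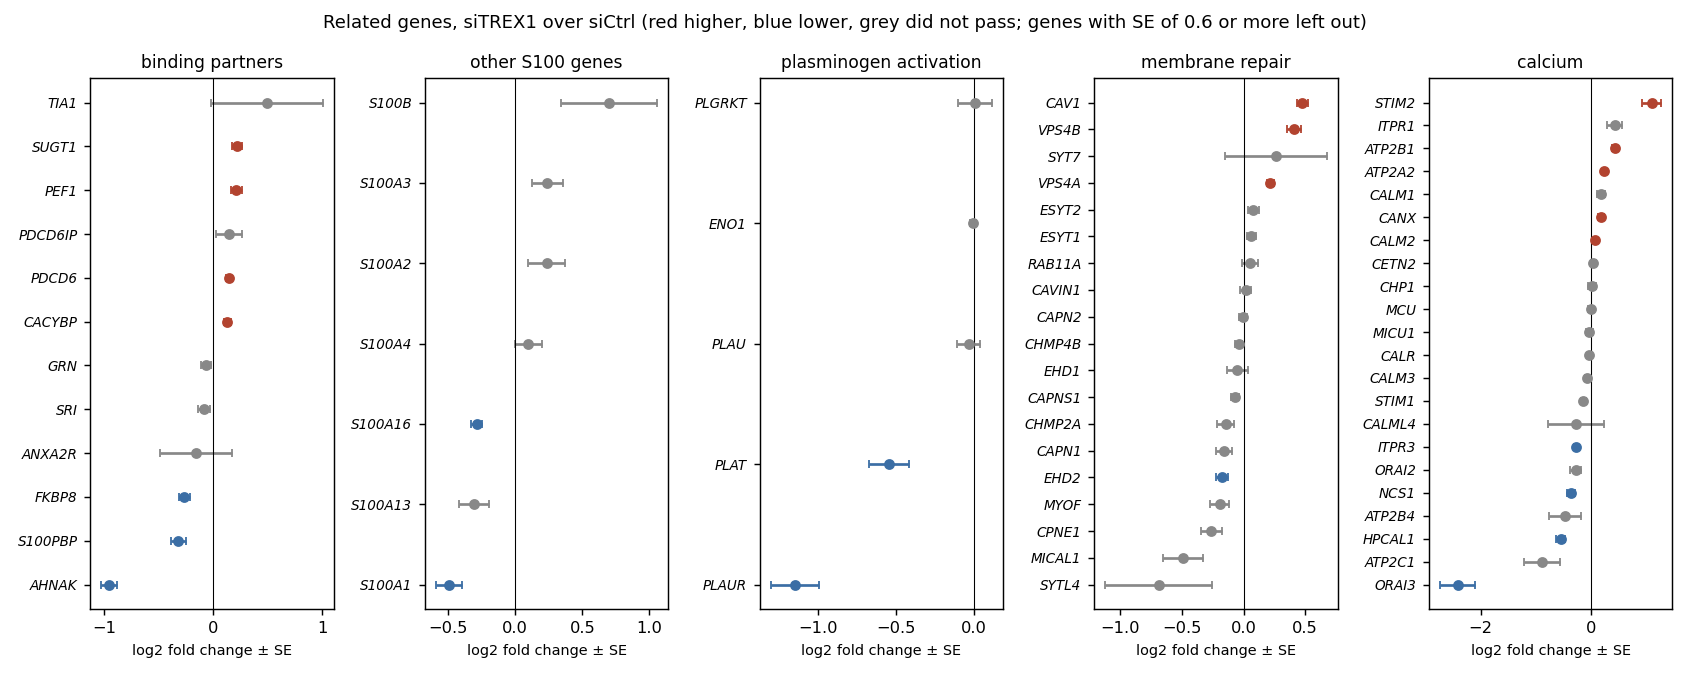
Log2 fold change (horizontal axis, bars are SE) of related genes, siTREX1 over siCtrl, in 5 lists; red passed as higher, blue passed as lower and grey did not pass, and genes with an SE of 0.6 or more are left out. AHNAK is the lowest of the binding partners, PLAUR is at -1.15 and ORAI3 at -2.42.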

How the data were processed

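H69AR libraries were made from total RNA with a strand-keeping kit, 3 labelled siTREX1 and 3 siCtrl. The authors quantified transcripts with kallisto and deposited estimated counts from tximport (scaledTPM), 1 transcript per gene symbol. Expected counts of this kind, as the authors made them, follow the depth of their own library and carry no transcript length. The submitters' processing notes name hg19 and FastQC. Their transcript annotation is not given in the sources used here. Transcripts were matched by identifier to GENCODE 29 (99.3%), and promoters were taken from RefSeq.

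They were rounded, and edgeR 4.0.16 under R 4.3.3 was run on them (robust quasi-likelihood test, TMM, filterByExpr with minimum count 10, Benjamini-Hochberg). SE was derived from the F statistic. A line without a gene symbol (0.0925% to 0.109% of counts) was left out. Ratios were tested by exact permutation in scipy 1.17.1. The alternatives tried were scaling by library sizes alone or by RLE factors, dropping the filter or asking for 10 counts in each of the 6 libraries, limma-voom 3.58.1, DESeq2 1.42.0, a replicate block, a GC trend removed by a spline with 6 degrees of freedom (alone and with the block), and each library left out. Fits were tested on simulated data. Named genes were the 10 members, pseudogenes, up to 6 called genes per list with the lowest p, partners of the members, and markers. The members and lists were chosen with earlier results of these data known. A plasminogen gene and a neuroendocrine marker are not reported here, and the counts of their lists leave them out.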

Additional observations from a re-analysis of the deposited data

How the results depend on the processing

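Of the 10 genes, ANXA1 kept its direction and its call in all 15 alternatives. The number of the 10 that were lower was 3, and 1 to 2 when a library was left out. It was 2 with library sizes alone, without a filter, and with a replicate block. It was 1 with the GC trend removed (ANXA11) and 1 with the GC trend removed and a replicate block (ANXA6). Leaving out each library in turn gave log2 fold changes of -0.42 to -0.28 for ANXA6, -0.0889 to -0.0584 for S100A6, -0.0338 to 0.12 for ANXA7, -0.0108 to 0.0285 for ANXA2, -0.0637 to 0.0875 for S100A10 and -0.26 to 0.13 for ANXA4. S100A6 was -0.0596 with library sizes alone and -0.0761 without a filter, and did not pass in either. With the GC trend removed, ANXA6 was -0.23, S100A6 0.0995, S100A10 -0.0114, S100A11 0.0226, FKBP8 0.0806 and EHD2 0.0367. The causes were not tested.

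Whether the shared replicate numbers pair the libraries is not known. Same-numbered deviations correlated weakly, at 0.0183, 0.0261 and 0.0245, although every library correlated best with its own number, which is a hint from the data. With 3 libraries per group these correlations cannot decide it. With the replicate block, 1901 genes were higher and 1518 lower, and S100A6 was -0.0780 without passing. With the GC trend removed together with the replicate block, 1215 genes of the whole table were lower, ANXA11 was -0.14, S100A6 0.0980, S100A10 -0.0150, S100A11 0.0218, FKBP8 0.0794 and EHD2 0.0359. The summed level of the 10 differed by 0.00485 percentage points, and by -0.00223 with the mitochondrial genome left out of the total. The median log2 fold change of all genes was -0.0182 with TMM, -0.0153 with RLE factors and 0.000219 with library sizes alone. ANXA4, with 114 to 247 counts, had the widest interval of the 10.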
